A study of Mus musculus with 22 samples.

Results

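The complement genes described here are 31 genes, chosen by symbol, of the 41388 genes counted in each library. They encode components of the cascade, its receptors and its regulators, and 28 of the 31 passed the filter on low counts. Cd46, Cr2 and Masp2 did not pass it and were not tested. The question was in which cells of a tumor stroma each gene was transcribed, and whether this differed between 2 genotypes.

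Stromal cells from tumors of C57BL/6 mice, labelled as postnatal day 56, had been separated from GFP+ tumor cells and sorted by the TdTomato reporter (TdT) and by CD45, the surface protein of blood cells. All mice carried Osx-cre, in which a doxycycline-repressible Sp7-tTA drives Cre, and the Ai9 allele that turns TdT on after Cre. The paper reports Sp7 in osteolineage cells and also in subsets of hematopoietic stem cells, so TdT does not mark the osteolineage alone. The paper states that mice fed doxycycline until weaning were used after its initial reporter experiments. Wild type (WT) libraries come from Osx-cre;Ai9 mice, and the others from mice labelled Cdh2-cKO;Ai9, a conditional knockout of N-cadherin; per the labels, 4 and 6 mice of these genotypes were inoculated, and preparations were kept by RNA integrity. Each genotype had 2 libraries of TdT+;CD45- cells and 3 each of TdT-;CD45-, TdT+;CD45+ and TdT-;CD45+ cells, so 22 libraries in all. The study's text describes subcutaneous PyMT-BO1 breast tumors sampled 2 weeks after inoculation, while the labels call them orthotopic MMTV-BO1 tumors.

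Complement is a chain of plasma and tissue proteins that tags surfaces for removal and can pierce membranes. C1q binds immune complexes or dying cells and sets off the proteases C1r and C1s, which cleave C4 and C2; lectins do the same through the MASP proteases; factor B, factor D and properdin amplify the cleavage of C3. The liver makes most plasma complement, whereas macrophages are a known source of C1q and properdin, and fibroblasts of C1r, C1s and C1 inhibitor. In tumors the cleavage products of C3 and C5 are known to act on myeloid cells through C3ar1 and C5ar1.

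Between 16594228 and 26784003 reads were counted on genes per library, with a median of 18977040. Ptprc, which encodes CD45, was at 472 to 1821 CPM (counts scaled to a common library size with TMM factors) in the 12 CD45+ libraries and at 2.45 to 337 CPM in the 10 CD45- libraries. A pair of libraries stood apart. WT TdT-;CD45+ replicate 2 had the highest Ptprc, summed B cell markers of 3474 CPM where no other library passed 21.7, and summed T cell markers of 2147 CPM where no other passed 423. It is called the lymphocyte-rich library below, but it stood apart in other lists too. Its summed endothelial, neutrophil and dendritic cell markers were at 219, 103 and 36.6 CPM. The other CD45+ libraries reached at most 42.2, 78.6 and 20.2 CPM. WT TdT-;CD45- replicate 3 had Ptprc at 337 CPM and summed macrophage markers of 14780 CPM. Cdh2 was not lower in the libraries labelled Cdh2-cKO. Among CD45- libraries it was at 4.52 to 9.13 CPM in WT and at 12.5 to 18.4 CPM in those labelled Cdh2-cKO (fitted log2 difference 0.64 over all populations, adjusted p = 0.559, edgeR quasi-likelihood test). A count over a whole gene does not show the loss of an exon, and TdT- cells are outside the reporter. Sp7, which encodes Osterix, held 2 reads over all CD45- and 1 over all CD45+ libraries, too few to compare at this depth. These are bulk RNA levels: fewer cells of a type and less RNA per cell cannot be told apart.

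The genes lie partly in clusters. C1qa, C1qb and C1qc, the 3 chains of C1q, occupy 18.7 kb of chromosome 4 on the same strand (chr4:136880129-136898803, GRCm38), and C1ra and C1s1 occupy 29.7 kb of chromosome 6 on opposite strands (chr6:124512632-124542359). C5ar1 and C5ar2 share 25 kb of chromosome 7, C2, Cfb and C4b share 170 kb of chromosome 17, and C6 and C7 share 337 kb of chromosome 15. Promoter sequences of 23 of the 31 genes were found in the RefSeq table (GRCm38.p6); none was matched for C1qa, C2, C4b, Cfb, Cfi, Serping1, Masp1 and Clu. The 250 bases before the RefSeq start are printed for 3 genes that were higher in CD45+ cells (C1qb, C1qc and C5ar1) and 3 that were lower (C1ra, C1s1 and C3), as examples of genes called in each direction. The windows of C1qc and C5ar1 lie partly inside the counted genes, which reach to chr4:136893065 and chr7:16259540. Capitals mark matches, on either strand, to GAGGAA (the core bound by PU.1, a myeloid factor), TTCNNNGAA (a STAT site) or GAAANNGAA (an interferon-response core).
C1qb, chr4:136886201-136886450, minus strand: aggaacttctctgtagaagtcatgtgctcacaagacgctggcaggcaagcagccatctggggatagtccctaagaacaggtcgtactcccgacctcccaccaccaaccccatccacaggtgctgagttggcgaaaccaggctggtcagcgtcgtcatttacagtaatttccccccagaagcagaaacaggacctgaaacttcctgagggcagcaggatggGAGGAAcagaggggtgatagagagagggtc
C1qc, chr4:136892915-136893164, minus strand: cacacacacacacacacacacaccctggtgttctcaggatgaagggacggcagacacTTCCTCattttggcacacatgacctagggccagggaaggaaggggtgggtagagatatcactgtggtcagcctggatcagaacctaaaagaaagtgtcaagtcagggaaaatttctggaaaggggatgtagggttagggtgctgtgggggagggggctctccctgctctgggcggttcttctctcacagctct
C5ar1, chr7:16259339-16259588, minus strand: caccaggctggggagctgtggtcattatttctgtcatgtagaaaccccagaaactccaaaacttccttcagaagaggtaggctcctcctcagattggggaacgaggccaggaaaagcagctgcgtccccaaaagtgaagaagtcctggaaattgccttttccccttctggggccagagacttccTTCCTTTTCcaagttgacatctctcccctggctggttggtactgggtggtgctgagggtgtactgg
C1ra, chr6:124512371-124512620, plus strand: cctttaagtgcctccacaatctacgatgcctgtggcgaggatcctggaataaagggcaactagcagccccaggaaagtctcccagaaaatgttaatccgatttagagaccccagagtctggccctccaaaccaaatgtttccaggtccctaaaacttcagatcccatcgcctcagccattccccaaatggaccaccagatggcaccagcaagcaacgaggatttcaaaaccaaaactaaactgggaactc
C1s1, chr6:124542360-124542609, minus strand: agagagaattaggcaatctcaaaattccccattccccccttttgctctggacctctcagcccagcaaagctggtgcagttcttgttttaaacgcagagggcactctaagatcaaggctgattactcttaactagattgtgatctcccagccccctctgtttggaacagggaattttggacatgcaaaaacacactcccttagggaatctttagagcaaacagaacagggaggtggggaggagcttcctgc
C3, chr17:57228137-57228386, minus strand: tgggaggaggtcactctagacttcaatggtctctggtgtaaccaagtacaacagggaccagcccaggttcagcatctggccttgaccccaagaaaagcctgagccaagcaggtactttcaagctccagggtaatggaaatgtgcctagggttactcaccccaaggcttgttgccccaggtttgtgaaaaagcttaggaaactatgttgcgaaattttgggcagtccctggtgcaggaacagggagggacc
GAGGAA occurred in 23.3% of 32851 promoter windows of this length, in 3 of the 8 matched genes that were higher in CD45+ cells (C1qb, C1qc and Vsig4) and in 0 of the 7 matched genes that were lower. TTCNNNGAA occurred in 7.02% of windows, in 0 of these 8 and in 1 of these 7 (C7). GAAANNGAA occurred in 7.13% of windows, in 1 of the 8 (C5ar1, where the match lies inside the counted gene) and in 0 of the 7. A match is a description of letters and not of a bound site.

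Complement genes were called in both directions between CD45+ and CD45- populations, on the higher side at a share close to that of all genes. In the mean of both CD45+ populations against the mean of both CD45- populations, 9 of the 28 genes tested were higher (32.6% of all 15018 genes were called higher) and 14 were lower (31.1% of all genes were called lower), at an adjusted p of at most 0.05 in edgeR's quasi-likelihood test. The 9 were the 3 C1q chains, the anaphylatoxin receptors C3ar1, C5ar1 and C5ar2, properdin (Cfp), Vsig4 and C8g. The 14 were C1ra, C1s1, Masp1, C2, C4b, C3, Cfb, Hc, C7, Serping1, Cfi, Clu, Vtn and Cd55. C6, Cfd, Cd59a, Cr1l and C1qbp did not pass. The median log2 fold change, CD45+ minus CD45-, was -1.14 over the 28 genes and 0.06 over all genes tested. With both libraries that stood apart left out, 9 genes were again called higher (31.1% of all genes were) and 14 lower (36.2% of all genes were). In the WT libraries alone 8 of the 9 lost their call and C8g kept it (16.5% of all 14533 genes tested there were called higher), while 13 were called lower (21.9% of all). The p-values measure the spread between these libraries, which share tumors in a way the labels do not give.

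**Figure D1:**
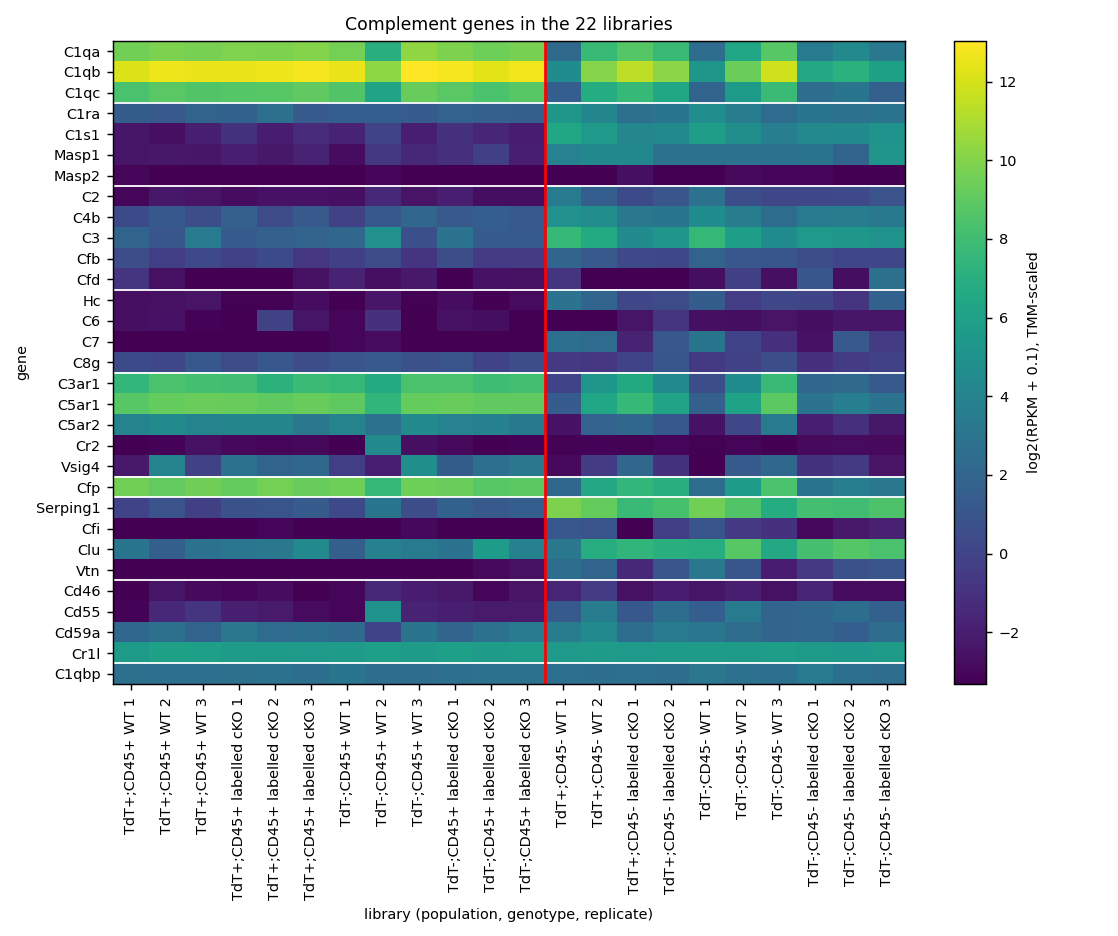
Heat map of the 31 genes (rows, grouped by role) in the 22 libraries (columns), coloured by log2(RPKM + 0.1), where RPKM is CPM per kilobase of gene length; the red line parts the 12 CD45+ from the 10 CD45- libraries. C1qb is the brightest row, with a median of 6208 RPKM in CD45+ libraries, while the rows of Cr1l and C1qbp each keep nearly 1 colour.

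C1qb had the highest median level per length of the 31 genes in CD45+ libraries, at 6208 RPKM (CPM per kilobase of gene length). In CD45- libraries its median was 397.5 RPKM, or 141.4 RPKM without WT TdT-;CD45- replicate 3. C1qb, the B chain of C1q, was at 1344 CPM (lowest), 6754 (median) and 9167 (highest) in the 12 CD45+ libraries. In the CD45- libraries it was at 27.3 and 1175 CPM (WT TdT+), 2926 and 1262 (labelled cKO TdT+), 43.3, 711 and 3968 (WT TdT-) and 103, 154 and 67.4 (labelled cKO TdT-). The groups overlapped, and the CD45- libraries spread over more than 100-fold. The highest of them, WT TdT-;CD45- replicate 3, exceeded the lowest CD45+ library, WT TdT-;CD45+ replicate 2, and so did labelled cKO TdT+;CD45- replicate 1 at 2926 CPM. The log2 fold change was 3.25 (SE 0.66, adjusted p = 0.000336). C1qa and C1qc had log2 fold changes of 3.14 (SE 0.65) and 3.15 (SE 0.63). C1qc, the C chain, was at 146, 851 and 1174 CPM (lowest, median and highest) in CD45+ libraries and at 5.56, 53.6 and 445 CPM in CD45- libraries. Per length, C1qb was 5.10 to 9.47 times as abundant as C1qa in every library, CD45+ or CD45-.

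C1q followed the macrophage markers through all 22 libraries. The summed CPM of the 3 chains was 20.4% to 39.3% of the summed CPM of 7 macrophage markers (Adgre1, Csf1r, Cd68, Mrc1, Fcgr1, Mertk and Lyz2) in CD45+ libraries, with a median of 30.6%. In CD45- libraries it was 22.7% to 40.8%, with a median of 32.7%, although the marker sum itself ran from 121 to 14780 CPM there. The receptors did likewise. C5ar1 was 3.12% to 7.82% of the marker sum in CD45+ and 4.02% to 8.50% in CD45- libraries, C3ar1 2.34% to 7.82% and 2.36% to 6.35%, and properdin 1.88% to 6.42% and 2.81% to 6.36%. The lymphocyte-rich library had C1q at 28.8% of the marker sum, within the range of the others, and the highest CD45+ shares of C3ar1 and C5ar1, both 7.82%, but per Ptprc its C1q was 0.893 against a median of 15.3 in CD45+ libraries. Over the 10 CD45- libraries, Spearman's rho with the marker sum was at least 0.976 for the C1q chains, the 3 anaphylatoxin receptors and properdin, values that share each library's depth and scaling.

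All 3 receptors of C3a and C5a were higher in CD45+ cells. C3ar1, the C3a receptor, was at 441, 1090 and 1473 CPM (lowest, median and highest) in CD45+ libraries and at 3.83, 58.3 and 938 CPM in CD45- libraries (log2 fold change 3.27, SE 0.69, adjusted p = 0.000487). C5ar1, the signalling C5a receptor, was at 441, 1421 and 1590 CPM in CD45+ and at 6.84, 103 and 1257 CPM in CD45- libraries (log2 fold change 3.20, SE 0.65, adjusted p = 0.000334). C5ar2, the second C5a receptor, was far lower per length, with a median of 15.8 RPKM against 553 RPKM for C5ar1 in CD45+ libraries. It ran over 24.5, 56.2 and 81.6 CPM there and 0.255, 2.52 and 38.9 CPM in CD45- libraries, and its log2 fold change was 3.35 (SE 0.65, adjusted p = 0.000245). In each of the 3 receptors the top CD45- library was WT TdT-;CD45- replicate 3, which alone of the CD45- libraries lay above the lowest CD45+ library for C3ar1 and C5ar2.

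Properdin, which stabilizes the C3 convertase of the alternative pathway, had the largest difference of the genes higher in CD45+ cells. Cfp was at 332, 1063 and 1369 CPM (lowest, median and highest) in CD45+ libraries and at 7.71, 56.2 and 595 CPM in CD45- libraries (log2 fold change 3.39, SE 0.58, adjusted p = 7.56e-05). The groups overlapped through the same pair of libraries that stood apart. Vsig4, a macrophage receptor for C3b, was low and uneven, from 0.178 to 41.4 CPM in CD45+ libraries with a median of 6.13, and its call (log2 fold change 2.83, SE 0.96, adjusted p = 0.0157) was lost when any of 4 single libraries was left out. C8g, the lipocalin-like subunit of C8, was at 1.34 to 3.44 CPM in CD45+ and 0.579 to 2.96 CPM in CD45- libraries, a log2 fold change of 0.95 (SE 0.25, adjusted p = 0.00294).

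No gene of the 9 separated all CD45+ from all CD45- libraries (3.71% of all genes did so in this direction). In the other direction 8 genes did, with every CD45- library above every CD45+ library: C1s1, C2, C4b, Hc, C7, Serping1, Masp1 and Vtn (11% of all genes did so). Summed macrophage markers overlapped between the sorts as well, at 121 to 14780 CPM in CD45- against 5638 to 44160 CPM in CD45+ libraries, whereas summed fibroblast markers did not, at 4265 to 59530 CPM against 63.3 to 222 CPM.

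**Figure D2:**
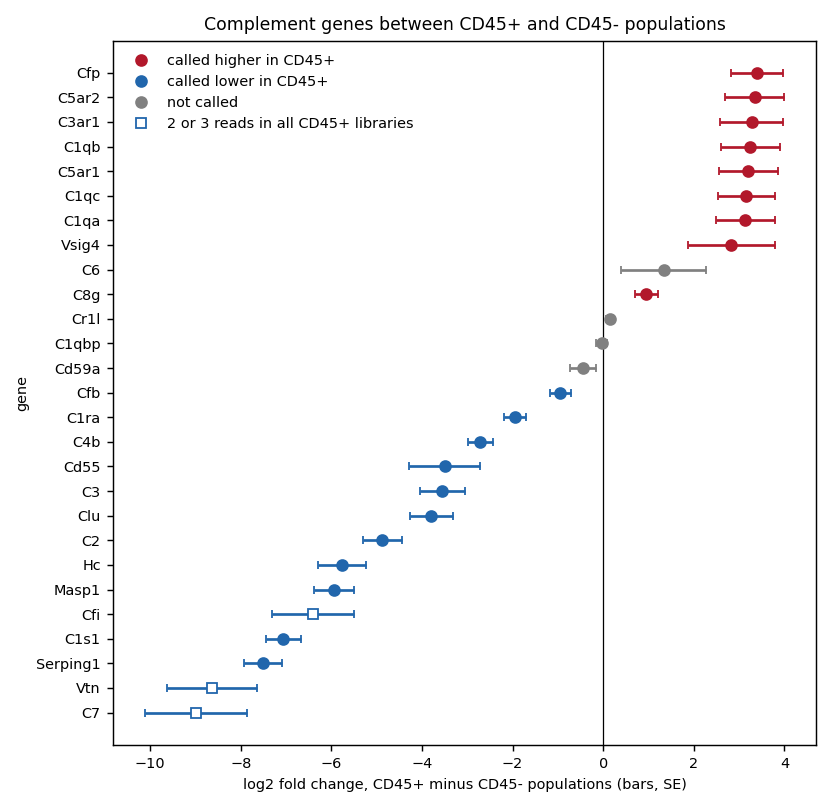
Fitted log2 fold change, CD45+ minus CD45- populations (horizontal axis; bars are SE), for 27 of the 28 genes tested; Cfd is left out because its SE was 20.6. The 9 genes called higher (red) run from 0.95 (C8g) to 3.39 (Cfp), the 14 called lower (blue) from -0.95 (Cfb) to -8.98 (C7), and open squares mark genes with only 2 or 3 reads in all CD45+ libraries.

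Of the proteases, the 2 of C1 lay on the CD45- side. C1s1, the protease C1s, was at 0.176, 0.565 and 2.81 CPM (lowest, median and highest) in CD45+ libraries. In CD45- libraries it was at 287 and 148 CPM (WT TdT+), 59.4 and 69.5 (labelled cKO TdT+), 173, 84.0 and 39.1 (WT TdT-) and 63.7, 70.1 and 99.0 (labelled cKO TdT-). The lowest CD45- library was thus over 10 times the highest CD45+ library, and the log2 fold change was -7.06 (SE 0.38, adjusted p = 1.34e-10). C1ra, the partner protease C1r, kept a floor in CD45+ cells at 6.38 to 17.9 CPM against 14.1 to 109 CPM in CD45- cells, and differed less (log2 fold change -1.95, SE 0.24, adjusted p = 2.15e-06). Per length, C1s1 was 2.12 to 4.05 times C1ra in CD45- libraries and 0.0215 to 0.319 times C1ra in CD45+ libraries. Of the exonic bases of C1s1, 18.4% overlap Gm16567 on the opposite strand, where ambiguous reads were not counted, so these ratios may be understated.

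Masp1, a protease of the lectin pathway, was at 0.12, 0.445 and 2.07 CPM (lowest, median and highest) in CD45+ and at 10.6, 20.8 and 102 CPM in CD45- libraries, without overlap (log2 fold change -5.95, SE 0.44, adjusted p = 5.05e-09). Masp2 held 12 reads in all 22 libraries. Of its exonic bases 54.9% overlap Tardbp on the opposite strand, where reads of a kit that does not mark strand are ambiguous and were not counted.

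The next step of the cascade was also on the CD45- side. C3, on which all pathways converge, was at 7.76, 17.2 and 157 CPM (lowest, median and highest) in CD45+ and at 122, 219 and 1007 CPM in CD45- libraries (log2 fold change -3.55, SE 0.49, adjusted p = 7.96e-06). The overlap came from the lymphocyte-rich WT TdT-;CD45+ replicate 2 alone, since the next CD45+ library was at 55.3 CPM. C4b (log2 fold change -2.71, SE 0.27) and C2 (log2 fold change -4.88, SE 0.43), the substrates of C1s, separated the sorts without overlap. Factor B (Cfb) was at 1.24 to 4.07 CPM in CD45+ and 2.81 to 10.9 CPM in CD45- libraries (log2 fold change -0.95, SE 0.23, adjusted p = 0.00175). The levels of C2 and Cfb are understated, because 46.9% and 79.5% of their exonic bases lie in other annotated genes, chiefly Gm20547, and ambiguous reads were not counted. Factor D (Cfd), known as adipsin of fat cells, was at 0 to 6.04 CPM and above 1 CPM in 2 libraries only, labelled cKO TdT-;CD45- replicates 1 and 3.

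Terminal components were sparse in both sorts. Hc, the mouse gene of C5, was at 3.01, 7.08 and 47.4 CPM (lowest, median and highest) in CD45- libraries and at most 0.63 CPM in CD45+ libraries (log2 fold change -5.77, SE 0.53, adjusted p = 6.35e-08). C7, the component that anchors the attack complex to membranes, was at 0.21, 3.93 and 22.4 CPM in CD45- libraries and held 3 reads in the 12 CD45+ libraries, 10 of which were at 0. The pooled ratio was 494, with an exact 95% counting interval of 169 to 2397, so its fitted log2 fold change of -8.98 is no bound. C6, its neighbour on chromosome 15, was at 0 to 3.44 CPM and did not pass (adjusted p = 0.225).

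The fluid-phase regulators Serping1, Cfi, Clu and Vtn were all lower in CD45+ cells. Serping1, the C1 inhibitor that blocks C1r and C1s, was at 1.79, 4.02 and 19.1 CPM (lowest, median and highest) in CD45+ libraries. In CD45- libraries it was at 2100 and 1359 CPM (WT TdT+), 502 and 719 (labelled cKO TdT+), 1734, 897 and 260 (WT TdT-) and 650, 593 and 816 (labelled cKO TdT-). The lowest CD45- library, at 260 CPM, was again WT TdT-;CD45- replicate 3, and the log2 fold change was -7.51 (SE 0.42, adjusted p = 1.93e-10). Per length, the median of Serping1 in CD45- libraries was 330 RPKM, above C3 at 42.5, C1s1 at 24.6 and C1ra at 8.17 RPKM. Vtn (vitronectin, which keeps the attack complex soluble) was at 0.275, 3.85 and 19.0 CPM in CD45- libraries and held 3 reads in all CD45+ libraries, a pooled ratio of 384 (exact 95% counting interval 131 to 1863). Cfi (factor I, the protease that inactivates C3b) was at 0, 0.976 and 4.34 CPM in CD45- libraries and held 2 reads in all CD45+ libraries, a pooled ratio of 166 (exact 95% counting interval 45.5 to 1373). The hepatocyte markers Alb, Apoa1 and Ttr summed to at most 6.86 CPM in any library. Counting intervals cover counting error only.

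Serping1 and C1s1 were in like proportion to the fibroblast markers in both sorts, and C1ra, C4b and C3 were not. Serping1 was 2.53% to 9.32% of the summed CPM of 8 fibroblast markers in CD45- libraries and 2.08% to 8.62% in CD45+ libraries, and C1s1 was 0.244% to 0.917% and 0.171% to 1.42%. C1ra was 0.0787% to 0.346% of the sum in CD45- libraries and 3.49% to 18.1% in CD45+ libraries, C4b 0.163% to 0.748% and 4.60% to 29.7%, and C3 0.672% to 3.06% and 8.35% to 70.9%, all without overlap.

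Clu, clusterin, another inhibitor of the attack complex, followed a different marker list among CD45- libraries. It was at 10.4, 30.7 and 179 CPM (lowest, median and highest) in CD45+ and at 32.1, 534 and 1493 CPM in CD45- libraries (log2 fold change -3.80, SE 0.47, adjusted p = 2.57e-06). Among the 10 CD45- libraries the CPM of Clu was 0.506 to 1.07 times the summed CPM of 5 epithelial markers (Krt8, Krt18, Krt19, Epcam and Cdh1), while its share of the fibroblast sum ran from 0.0540% to 15.99%. In CD45+ libraries Clu was 0.0309 to 0.38 times the epithelial sum. Of the 5 epithelial markers, 2 were called higher and 3 lower in CD45+ cells. Over the 10 CD45- libraries Spearman's rho of Clu was 0.927 with the epithelial sum and -0.467 with the fibroblast sum. For C2, Serping1 and Vtn, rho with the fibroblast sum was 0.976, 0.855 and 0.830, and with the pericyte sum 0.964, 0.842 and 0.818. For Masp1 and Cd55 the same rank correlation with the fibroblast sum was lower, at 0.273 and -0.212. For Cfb, C4b, C3, C7, Cfi, C1ra, C1s1 and Hc it was 0.564 to 0.806. Cd59a, which was not called between the sorts, was at 0.915. The library with the lowest epithelial sum, WT TdT+;CD45- replicate 1 at 33.8 CPM, had the lowest CD45- value of Clu.

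**Figure D3:**
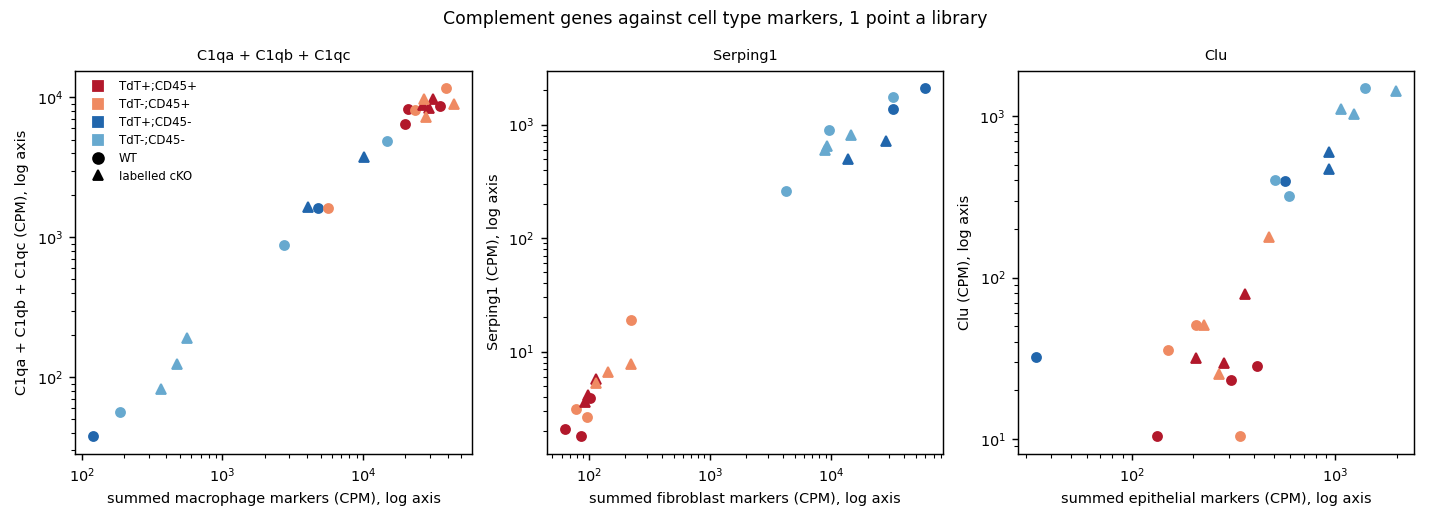
Each point is 1 library (colour, population; circles, WT; triangles, labelled cKO), with the summed CPM of a marker list on the horizontal and the CPM of complement genes on the vertical axis, all log axes. C1q lies along 1 line through CD45+ and CD45- libraries, Serping1 likewise against fibroblast markers in 2 separate clouds, and Clu tracks epithelial markers among CD45- libraries (blue) at 0.506 to 1.07 times their sum.

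Membrane regulators did not form a block. Cd55, which speeds the decay of convertases, was at 0.0594 to 2.22 CPM in 11 CD45+ libraries and at 165 CPM in the lymphocyte-rich WT TdT-;CD45+ replicate 2, against 10.6 to 59.7 CPM in CD45- libraries (log2 fold change -3.50, SE 0.79, adjusted p = 0.000862). Cr2, complement receptor 2 of B cells, was at 143 CPM in that same library and at no more than 0.422 CPM in the other 21. Cd59a, which blocks the last step of membrane attack, was at medians of 10.1 CPM in CD45+ and 10.5 CPM in CD45- libraries (adjusted p = 0.191). Cr1l (Crry, the main C3 regulator of rodent cells) was nearly flat at 70.3 to 107 CPM, with a log2 difference of 0.14 (SE 0.08, adjusted p = 0.121). C1qbp, mostly a mitochondrial protein despite its name, was at medians of 18.1 CPM in CD45+ and 17.3 CPM in CD45- libraries, with a log2 difference of -0.04 (SE 0.11, adjusted p = 0.803). Cd46, in mice largely a gene of the testis, did not exceed 2.13 CPM.

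Of 27 further complement genes, 14 were tested between the sorts. In CD45+ cells 7 were higher (32.6% of all genes were), 3 were lower (31.1% of all genes were) and 4 did not pass. Higher were the integrin chains of complement receptors 3 and 4, Itgam (log2 fold change 3.47), Itgax (3.63) and Itgb2 (3.37), with Susd4 (3.85), Fcna (2.68), Cd93 (1.70) and C1rl (1.68). Lower were C1s2, the close copy of C1s1 (log2 fold change -5.05), Colec12 (-2.66) and Csmd1 (-4.00). In every other comparison 0 of these 14 passed. Reads were counted only where they aligned to 1 place, so C1s1, C1ra, C4b, Cd55 and Cd59a, which have close copies elsewhere in the genome, may be undercounted.

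Within each sort, no complement gene was called between TdT+ and TdT- cells in the fit of all libraries. Between TdT+;CD45+ and TdT-;CD45+ cells 0 of the 28 genes passed (0.00666% of all genes were called higher and 0% lower in TdT+ cells), and 3 had an unadjusted p under 0.05 (4.06% of all genes did), namely Serping1, Cd55 and Masp1. DESeq2 and the voom test of the study's methods also called 0. C1qb was at 5076, 6875 and 6634 CPM (WT) and 6632, 6976 and 7720 CPM (labelled cKO) in TdT+;CD45+ libraries, and at 6539, 1344 and 9167 CPM (WT) and 7891, 5848 and 7247 CPM (labelled cKO) in TdT-;CD45+ libraries. The ranges overlapped, with the lymphocyte-rich library lowest. Between TdT+;CD45- and TdT-;CD45- cells 0 of the 28 passed either (1.23% of all genes were called higher and 0.659% lower in TdT+ cells), and 5 had an unadjusted p under 0.05 (19% of all genes did): C1qa, C1qc, Cd59a, Cfd and Clu. The voom test called 0 and DESeq2 called 1, Cfd, lower in TdT+ cells (3.1% of all genes were). This count depended on the libraries. Without WT TdT-;CD45- replicate 3, 4 genes were called higher in TdT+;CD45- cells, C1qa, C1qc, C5ar2 and Cfp (4.43% of all genes were called higher), and without both libraries that stood apart Cd59a joined them (7.55% of all genes). In the libraries labelled cKO alone, 7 genes were called higher (7.72% of all genes were), the 3 C1q chains, C3ar1, C5ar1, C5ar2 and Cfp, with log2 differences from 3.91 (C5ar1) to 4.68 (C1qc). Cfd was called lower there (0.381% of all genes were). Summed macrophage markers moved with them, at 4038 and 10140 CPM in labelled cKO TdT+;CD45- libraries and at 365 to 557 CPM in labelled cKO TdT-;CD45- libraries; their part in the result was not tested.

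Between genotypes, 0 of the 28 complement genes passed in the mean over the 4 populations (0% of all genes did so in edgeR's quasi-likelihood test). By unadjusted p under 0.05 there were 7 (11.5% of all genes): C1ra, C2, C3, C6, Cfb, Cd55 and Clu. DESeq2 and the voom test called 0 of the 28 in this comparison too. C3 had a log2 difference, labelled cKO minus WT, of -1.47 (SE 0.47, adjusted p = 0.322). In WT it was at 1007 and 520 CPM in TdT+;CD45- libraries and at 987, 288 and 130 CPM in TdT-;CD45- libraries. In libraries labelled cKO it was at 122 and 191 CPM in TdT+;CD45- and at 226, 212 and 166 CPM in TdT-;CD45- cells. The TdT+ libraries of the genotypes did not overlap and the TdT- libraries did, since WT TdT-;CD45- replicate 3 was the lowest of those. The share of all genes that separate the TdT+;CD45- libraries of the genotypes without overlap was not counted.

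**Figure D4:**
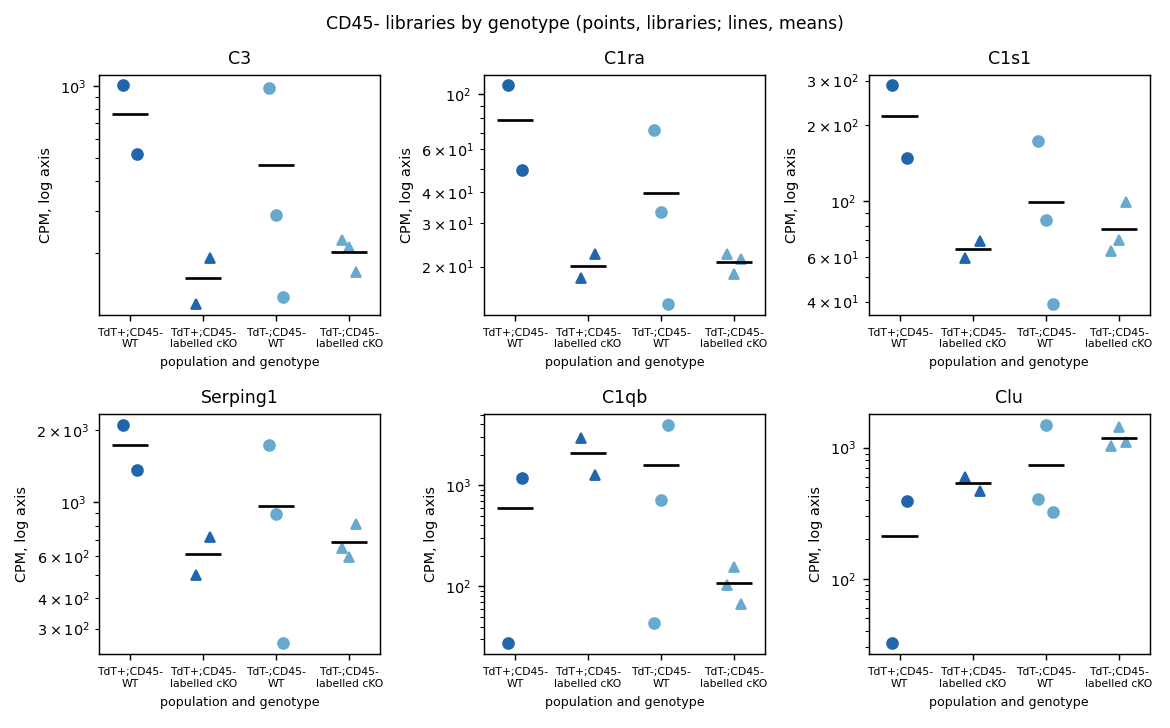
CPM (log axes) of 6 complement genes in the 10 CD45- libraries by population and genotype; points are libraries and lines group means of 2 or 3 libraries. In TdT+;CD45- cells the 2 WT libraries lie above the 2 labelled cKO libraries for C3, C1ra, C1s1 and Serping1. None of these 4 genes was called there, and the share of all genes that separate in this way was not counted. In TdT-;CD45- cells the 3 WT libraries span the labelled cKO libraries for these 4 genes.

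Within TdT+;CD45- cells, 0 genes passed (0.00666% of all genes did) and 8 had an unadjusted p under 0.05 (10.5% of all genes did), with 0 called by DESeq2 and by voom. C1ra was at 109 and 49.2 CPM in WT and at 18.0 and 22.4 CPM in labelled cKO libraries (log2 difference -1.97, SE 0.56, adjusted p = 0.298). Fibroblast markers summed to 59530 and 32070 CPM in these WT libraries and to 13670 and 28470 CPM in those labelled cKO, and their part in the difference was not tested. C1s1, C2, C4b, Hc and Cfb had log2 differences from -1.49 to -2.35 in the same direction, none past the test, while C6 and C8g had positive ones.

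Within TdT-;CD45- cells, 0 genes passed (0% of all genes did) and 10 had an unadjusted p under 0.05 (9.6% of all genes did). The myeloid genes among them had lower values in 3 of 3 labelled cKO libraries than in WT replicates 2 and 3. WT replicate 1 lay below all 3 labelled cKO libraries for each of them but C1qc. C5ar1 was at 7.91, 173 and 1257 CPM in WT and at 19.1, 32.7 and 19.5 CPM in labelled cKO libraries (log2 difference -4.33, SE 1.22, adjusted p = 0.18). The 7 genes C1qa, C1qb, C1qc, C3ar1, C5ar1, C5ar2 and Cfp were all called lower once WT TdT-;CD45- replicate 1 was left out (4.02% of all genes were), with log2 differences from -4.28 (C1qa) to -5.00 (C3ar1). On all libraries DESeq2 called 6 of them (3.29% of all genes were called lower) and voom 0. Summed macrophage markers were at 187, 2726 and 14780 CPM in WT and at 476, 557 and 365 CPM in the labelled cKO libraries, and their part was not tested.

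Within TdT+;CD45+ cells, 0 genes passed (0% of all genes), 0 had an unadjusted p under 0.05 (3.43% of all genes did), and DESeq2 and voom called 0. Within TdT-;CD45+ cells, 0 genes passed (0% of all genes) and 1, Cd55, had an unadjusted p under 0.05 (9.81% of all genes did). Its values were 0.12, 165 and 0.97 CPM in WT against 0.769, 0.602 and 0.641 CPM in labelled cKO libraries, so the difference rested on the lymphocyte-rich library, and DESeq2 called it (0.166% of all genes were called lower) where voom did not. The CD45 difference itself did not differ detectably between genotypes in any of the 28 genes (0% of all genes passed), and 4 had an unadjusted p under 0.05 (7.7% of all genes did): C1ra, C4b, Cfb and Cd59a, while DESeq2 and voom called 0. For C1ra the difference of the log2 fold changes, labelled cKO minus WT, was 1.80 (SE 0.48, adjusted p = 0.522), with C1ra at 6.38 to 10.5 CPM in WT CD45+ and 6.79 to 17.9 CPM in labelled cKO CD45+ libraries.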

How the data were processed

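RNA from 22 sorted libraries was prepared with SMARTer amplified cDNA, without strand, and sequenced as 50-base single reads. Per the labels, the authors aligned reads to GRCm38 with STAR 2.0.4b and counted them on genes with featureCounts (Subread). The deposited counts are whole numbers of uniquely aligned, unambiguous reads. The CPM and RPKM values deposited by the authors are those counts scaled to library size, and then to gene length; they were only checked against the counts, and every CPM or RPKM printed was computed from the counts with TMM factors.

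After removal of 355 rRNA genes, a gene was tested if 2 libraries or more exceeded 1 CPM, which left 15018. edgeR 4.0.16 (R 4.3.3) fitted a quasi-likelihood model with 1 mean for each population and genotype, p-values were adjusted over all genes tested by the Benjamini-Hochberg method, and 0.05 was the limit for a call. Scripts were tested on simulated data. Members and gene lists were chosen with earlier results of these data known. Every library (lowest, median and highest for groups over 5) is given for the 6 largest called differences in each direction. Genes named beyond this rule were named for their role, or after their values were seen. Replicates differed by 53.5 to 460.5 times the counting variance, so none was a repeated library. A floor of 3 counts was 0.103 to 0.201 CPM. The alternatives were limma 3.58.1 voom with quality weights (the study's test), DESeq2 1.42.0, RLE factors, no filter, a fold threshold, libraries left out, each genotype alone and a replicate block.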

Additional observations from a re-analysis of the deposited data

How the results depend on the processing

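With the replicate block as a fixed term, 9 genes were called higher (31.1% of all genes were) and 14 lower (29.8% of all genes were) in CD45+ cells. That fit called 0 in the other population comparisons and in the difference between genotypes. With the block as a random effect, 0 were called between genotypes. The correlation of deviations passed 0.1 in 4 of 15 same-numbered and 5 of 30 other pairs in WT. In libraries labelled cKO it did so in 6 of 15 and 1 of 30. These counts cannot decide whether the numbers pair the libraries, because deviations in groups of 2 libraries mirror each other. The main fit used no pairing. The 9 and 14 calls between CD45+ and CD45- cells ran over 8 to 9 and 13 to 14 with single libraries left out. Of all genes, 29.9% to 33.5% were called higher and 28.9% to 33.8% lower in those fits. In the WT libraries alone only 1 gene, C8g, was called higher (16.5% of all genes were), with the other 8 at log2 fold changes from 2.34 to 3.07. There 13 were called lower (21.9% of all genes were). In the libraries labelled cKO alone the counts were 8 and 12 (26.4% and 31.9% of all genes). Vsig4 lost its call without WT TdT+;CD45- replicate 1, WT TdT+;CD45+ replicate 2, WT TdT-;CD45+ replicate 3 or labelled cKO TdT+;CD45- replicate 2 (adjusted p from 0.0515 to 0.077), and with voom (0.107). Cfi lost its call without labelled cKO TdT+;CD45- replicate 2, because the library left in that group held 0 reads. DESeq2 gave no adjusted p for Cfp. Between TdT+;CD45- and TdT-;CD45- cells the calls, 0 in the fit of all libraries, were 1 with DESeq2 (Cfd), 5 without both libraries that stood apart and 8 in the libraries labelled cKO alone, and ran from 0 to 4 with single libraries left out; the 1 call without WT TdT-;CD45+ replicate 2 was Cd59a. Summed over the 4 populations, calls between genotypes were 7 with DESeq2 and 0 to 7 with single libraries left out. TdT+;CD45+ against TdT-;CD45+ cells, the mean genotype difference and the difference of the CD45 effect kept 0 calls (0 to 0) with single libraries left out. No setting reversed a direction among the 23 genes called between CD45+ and CD45- cells.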
